A study of Arabidopsis thaliana with 12 samples.

Results

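UDP-glycosyltransferases, named UGT with a family number, a subfamily letter and a gene number, were examined in light-grown Arabidopsis seedlings given gibberellin (GA) for a short time. The genes were taken as every probe set that names 1 gene in the platform names table with a symbol of UGT followed by a digit. This gave 47 of the 22746 probe sets left once the array's own control probe sets were set aside, 1 for each of 47 genes in 11 families. Arabidopsis UGTs without such an entry, among them UGT73C5, UGT74F2, UGT75B1 and UGT84A2, were not covered. All 47 matched a gene of the TAIR10.1 table by gene ID. Of these, 30 (63.8%) passed a limit on low values and were tested, against 15922 (70%) of all probe sets.

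UGTs of plants transfer a sugar, most often glucose from UDP-glucose, to small acceptor molecules. Acceptors include flavonoids, lignin precursors, sinapate, glucosinolate precursors, sterols, foreign compounds and the hormones auxin, cytokinin, abscisic acid, salicylic acid and jasmonates. A glucose group usually makes a hormone inactive or sends it to storage, and beta-glucosidases can remove it again. GA binds the soluble receptors GID1A, GID1B and GID1C, which then cause the growth-repressing DELLA proteins to be degraded.

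Transcripts were measured on Affymetrix ATH1 arrays in 2 mutants, at an age of 7 days. The groups were ga-1 (SALK_109115), which is impaired in making GA, given 100 µM GA3 or mock-treated for 1 h, and the receptor triple mutant gid1a-1 gid1b-1 gid1c-2 (gid1 below) given 100 µM GA3 or mock-treated for 1 h. Each of the 4 groups had 3 arrays, described by the submitters as biological replicates, and no wild type was among them, so every group carries a mutation in GA synthesis or GA perception. The design text states that genes regulated by GA should respond in ga-1 and not in gid1.

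Values are MAS5 signals on a linear scale, scaled by the authors so that every array had the same trimmed mean. A signal depends on the probes as well as the transcript, so levels were compared between arrays and not between genes. The precision of each comparison is limited by 3 arrays per group. The mutated receptor genes followed the labels for GID1A, at 42.4 to 70.9 in gid1 mock against 639.5 to 710.1 in ga-1 mock, and for GID1B, at 47.5 to 74.2 against 457.6 to 544. GID1C did not, at 97.6 to 170.7 in gid1 mock against 79.1 to 124.1 in ga-1 mock (limma adjusted p = 0.993), and since the position of its probes in the gene was not looked at, it does not check the labels. Among GA3-treated arrays, GID1A was at 55.5 to 64 in gid1 against 194 to 235.4 in ga-1. GID1B overlapped there, at 78.3 to 112 in gid1 against 73.3 to 87.6 in ga-1, so it does not check the labels of those arrays. Green-tissue markers, 2 of 14 listed with a named probe set (RCA and LHCB4.1), had summed signals of 41140 to 51420 over the 12 arrays. Root markers, 3 of 12 (PYK10, EXPA7 and EXPA18), had sums of 9485 to 14300, so signal from shoot and root markers was present. The mean log2 signals of the root markers were 8.91 to 9.31, so the 3 did not share the sums evenly. Seed markers, 9 of 24, had sums of 583.6 to 730.6 in ga-1 with GA3 and 461.2 to 2874 in ga-1 mock, where replicate 2 was the highest, and of 1942 to 4542 in gid1 with GA3 and 325.8 to 701.7 in gid1 mock. The seed signal was thus highest in gid1 with GA3 and in 1 ga-1 mock array, and low in gid1 mock. Its part in the results below was not tested. These are bulk samples, in which fewer cells of a type and less RNA per cell cannot be told apart.

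Which UGT transcripts passed the limit on low values was examined first. The 17 genes under the limit, a mean log2 signal of 5.55 over the 12 arrays (a signal of 46.9), had signals of 1.3 to 90.4 with a median of 12.75, and none of their 204 values exceeded 100. The genes just inside the limit were UGT76E2, with a mean log2 signal of 5.94, and UGT76D1, with 6.14. Those just outside were UGT85A3, with 5.47, and UGT73C1, with 5.02.

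By subfamily, all 5 members of 71C and all 3 of 73B were tested, while none of the 3 of 73C and neither of the 2 of 84B was. The untested genes include several with well-known acceptors. UGT84B1 glucosylates the auxin indole-3-acetic acid and had signals of 1.3 to 32.5. UGT74F1, which makes salicylic acid glucoside, had 6.1 to 43.9, and UGT71B6, which glucosylates abscisic acid, had 1.7 to 69.7. UGT72E3 (monolignols), UGT78D3 (flavonol arabinosyltransferase), UGT84A1 (hydroxycinnamates) and UGT76E1 (hydroxyjasmonate) each stayed at or below 54.2. The others were UGT71B5, UGT71B8, UGT73C1, UGT73C2, UGT73C7, UGT73D1, UGT76E12, UGT84B2, UGT85A3 and UGT85A7. With no low-value limit, when all 47 genes were tested, none of these 17 was called in the 5 comparisons, which does not show that they did not change. The plot of all 47 genes by array shows the low values of these genes, many of them scattered between arrays.

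**Figure D1:**
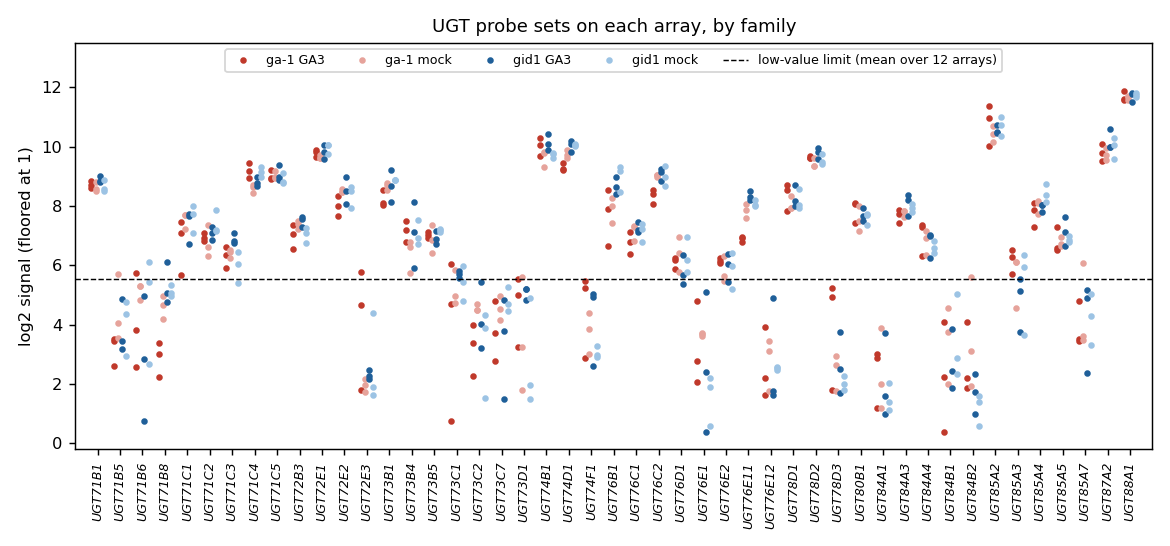
Log2 MAS5 signal (floored at 1) of the 47 UGT probe sets, ordered by family, with 1 point for each of the 12 arrays, coloured by group, and the low-value limit of 5.55 as a dashed line. The 30 tested genes have a mean over the arrays above the line, and the 17 others scatter between signals of 1.3 and 90.4.

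The first comparison asked which UGT transcripts differ within 1 h of GA3 in ga-1, and 1 gene of the family passed the test. UGT76E11 (AT3G46670), which acts on flavonols, fell to signals of 109, 121.6 and 123.7 in ga-1 with GA3, against 232.7, 268.3 and 194.4 in ga-1 mock. The 3 arrays with GA3 were close together and lay below all 3 mock arrays. The log2 difference was -0.96 ± 0.17 (SE), with a 95% interval of -1.32 to -0.60 (limma adjusted p = 0.00941). No other UGT passed the adjusted p of 0.05, so 1 of 30 (3.33%) was called, against 0.81% of all tested probe sets. The call was lost without ga-1 mock replicate 2, the array with the high seed markers (log2 difference -0.85, adjusted p = 0.0749), and when the ga-1 groups were fitted alone (adjusted p = 0.0662). With all gid1 GA3 arrays left out it held (adjusted p = 0.023).

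UGT76E12, a neighbour of UGT76E11 on chromosome 3 that also acts on flavonols, was below the limit with signals of 3.1 to 29.8. UGT76E1 and UGT76E2, neighbours on chromosome 5, glucosylate hydroxyjasmonate. UGT76E2 had a mean of 71.5 ± 4.76 in ga-1 with GA3 and 57.5 ± 18.8 in ga-1 mock (SD, n = 3 each), a log2 difference of 0.36 with a 95% interval of -0.50 to 1.21, wide enough to hold a change in either direction.

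The 2 cytokinin N-glucosyltransferase genes, UGT76C1 and UGT76C2, are also neighbours. UGT76C2 (AT5G05860) had 266.2, 368.2 and 336.4 in ga-1 with GA3, against 522.7, 527.4 and 501.3 in ga-1 mock. The groups did not overlap, and the log2 difference of -0.69 ± 0.17 (SE) missed the threshold over all genes (limma adjusted p = 0.0957). With array weights it passed (-0.75, adjusted p = 0.0249). In the other 21 of 22 alternatives it did not, with limma adjusted p up to 0.342. UGT76C1 had a mean of 110 ± 27.8 with GA3 and 143 ± 27 in mock, and its arrays overlapped (log2 difference -0.38, adjusted p = 0.793).

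UGT74D1 (AT2G31750), which glucosylates auxins and the oxidised auxin oxIAA, had 607.4, 595.2 and 698.9 in ga-1 with GA3, against 791.1, 850 and 938 in ga-1 mock. All 3 GA3 arrays were below the mock arrays, and the log2 difference was -0.44 ± 0.13 (SE; limma adjusted p = 0.186). UGT71C4 (AT1G07250) differed the other way, with 574.4, 696.5 and 486.7 in ga-1 with GA3, against 399.8, 344.5 and 418.8 in ga-1 mock. Its groups did not overlap either, and the log2 difference was 0.59 ± 0.15 (SE; adjusted p = 0.121). Among the 30 genes it was the 1 whose GA3 arrays all lay above the mock arrays in ga-1.

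Of the 30 genes, 5 had ga-1 GA3 arrays below all mock arrays (16.7%, against 7.17% of all tested probe sets) and 1 had them above (3.33%, against 6.85%). The remaining 2 of the 5 were UGT72E2 and UGT73B1. UGT72E2, which glucosylates the monolignols coniferyl and sinapyl alcohol, had a mean of 261 ± 59.9 with GA3 and 362 ± 12.8 in mock (log2 difference -0.49, adjusted p = 0.636). UGT73B1 had 302 ± 59.2 with GA3 and 410 ± 35.2 in mock (log2 difference -0.46, adjusted p = 0.633). In all, 16 of the 30 log2 differences were above 0 (53.3%, against 51.9% of all tested probe sets), and their median was 0.03, against 0.01 for all. The 30 tested genes were therefore centred where all probe sets were, with a few members on the low side. The median size of the difference, without its sign, was 0.29 for the 30 genes and 0.14 for all probe sets. It was also larger in the family for GA3 in gid1, at 0.22 against 0.14. Between the mock groups of the mutants it was 0.17 against 0.13, so the larger size is not particular to ga-1 with GA3.

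**Figure D2:**
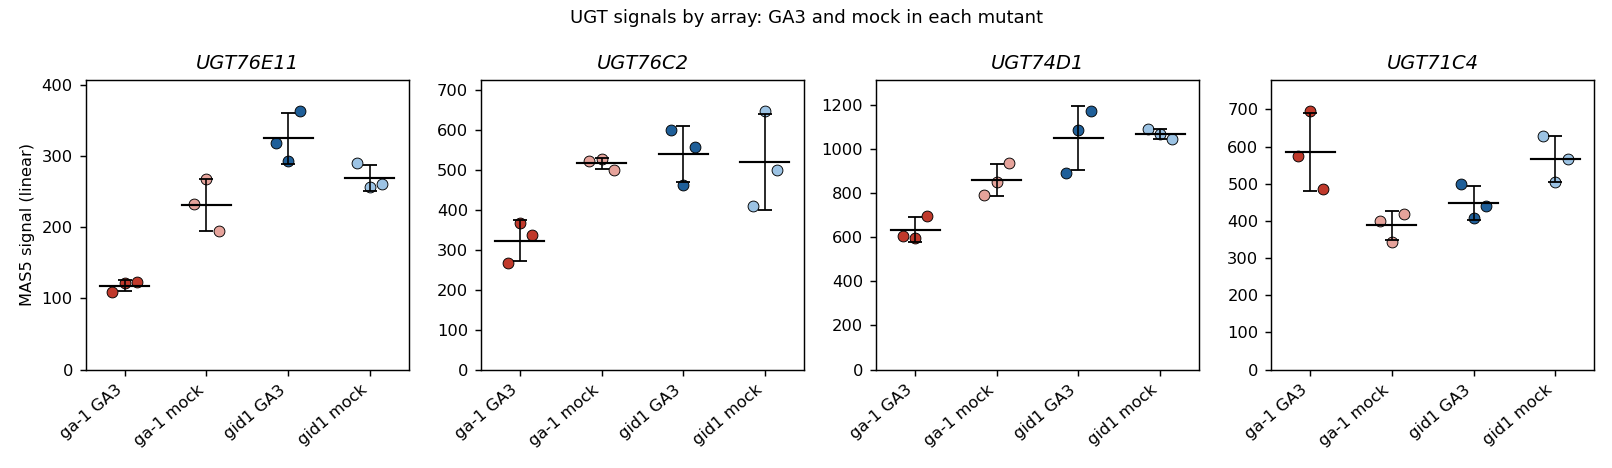
MAS5 signals (linear axis from 0) of UGT76E11, UGT76C2, UGT74D1 and UGT71C4 on each array, with GA3 left of mock in ga-1 (red) and in gid1 (blue). Horizontal lines are group means and bars are SD (n = 3), and the ga-1 GA3 arrays of the first 3 genes lie below those of ga-1 mock, while those of UGT71C4 lie above.

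In gid1, which has mutations in all of the GID1 genes, no UGT was called after GA3. Limma called 0 of the 30 genes and 0% of all probe sets, and the smallest adjusted p in the family was 0.94. At an unadjusted p under 0.05 there were 4 of 30 (13.3%), against 5.26% of all probe sets, namely UGT71C3, UGT71C4, UGT74B1 and UGT85A4. The seed markers were higher in the gid1 arrays with GA3 than in gid1 mock, as given above, and their part in these values was not tested.

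UGT76E11 had 318.3, 293.3 and 364.1 in gid1 with GA3, against 290.9, 256.8 and 260.5 in gid1 mock. All 3 GA3 arrays were slightly above the mock arrays, the side opposite to ga-1, and the log2 difference was 0.27 with a 95% interval of -0.09 to 0.63 (limma adjusted p = 0.94). UGT71C4 had 498.4, 408.3 and 440.4 with GA3, against 628.1, 505.7 and 567 in mock. Its GA3 arrays were below the mock arrays, again the side opposite to ga-1 (log2 difference -0.34, 95% interval -0.66 to -0.01, adjusted p = 0.94). UGT76C2 had 599.8, 463 and 559.1 with GA3, against 410.6, 649.1 and 499.6 in mock, and these overlapped (log2 difference 0.07, 95% interval -0.29 to 0.44).

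UGT71C3, which glucosylates methyl salicylate, had the largest log2 difference of the family in gid1. Its signals were 112.8, 135.5 and 108.6 with GA3, against 42.7, 65.1 and 87.9 in mock. The groups did not overlap, though the mock arrays were widely spread (log2 difference 0.92 ± 0.32 SE, adjusted p = 0.94). UGT74B1, which adds the glucose of glucosinolates, had a mean of 1137 ± 225 with GA3 and 843 ± 54.9 in mock (log2 difference 0.41, or 0.26 without gid1 GA3 replicate 3). In ga-1 its log2 difference was 0.37, and neither was called (adjusted p = 0.94 in gid1 and 0.662 in ga-1). The other 2 of the 5 genes with the smallest p in gid1 were UGT85A4 (log2 difference -0.46, or -0.29 without gid1 mock replicate 1) and UGT72B3 (0.45).

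Of the 30 genes, 4 had gid1 GA3 arrays above all mock arrays (13.3%, against 4.74% of all probe sets) and 2 had them below (6.67%, against 4.37%). Of the log2 differences, 18 of 30 were above 0 (60%, against 51.3%), with a median of 0.10, against 0.01 for all tested probe sets.

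**Figure D3:**
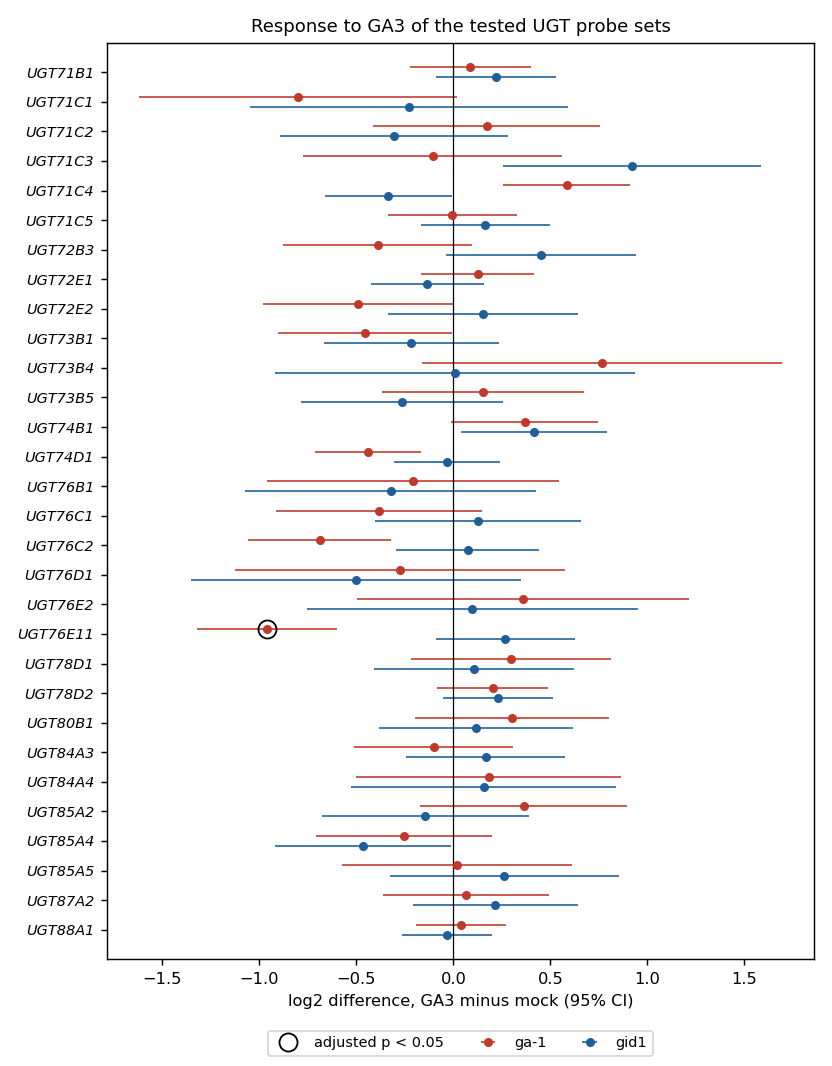
Log2 difference, GA3 minus mock, of the 30 tested UGT genes in ga-1 (red, upper of each pair) and gid1 (blue, lower), with 95% intervals from limma and a ring around a difference past the adjusted p of 0.05. UGT76E11 in ga-1, at -0.96, carries the 1 ring, and the 2 intervals of UGT71C4 lie on opposite sides of 0.

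The difference between the responses, ga-1 minus gid1, was tested for each gene in the same fit. It was called for 1 of 30 UGTs (3.33%, against 0.22% of all tested probe sets). That gene was UGT76E11, with a log2 difference of -1.23 ± 0.24 (SE), a 95% interval of -1.74 to -0.72 and a limma adjusted p of 0.0465, close to the threshold. The ga-1 arrays enter both this test and the test within ga-1. The call was lost in 15 of 20 alternatives, among them 10 of the 12 that leave out 1 array (it held without ga-1 GA3 replicate 3 and without ga-1 mock replicate 3), with adjusted p from 0.0426 to 0.166, while the difference itself stayed between -1.35 and -1.05.

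UGT71C4 was next, with a difference of responses of 0.92 ± 0.22 (SE), a 95% interval of 0.46 to 1.38 and an adjusted p of 0.136, from a log2 difference of 0.59 in ga-1 and -0.34 in gid1. UGT76C2 had -0.76 ± 0.25 (SE, adjusted p = 0.425), from -0.69 in ga-1 and 0.07 in gid1. UGT71C3 and UGT72B3 had -1.03 and -0.84 (adjusted p = 0.69 and 0.63), and UGT74D1 had -0.41 (adjusted p = 0.719). None of these 5 was called, so a difference between the mutants in the response to GA3 was not shown for them.

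Genes that lie side by side in the genome are described next, without a test between them. The 47 genes hold 13 groups of neighbours, defined as members with at most 1 other protein-coding gene between them, with 30 members in all. UGT71C5, UGT71C4 and UGT71C3 follow each other on chromosome 1 and were all tested. UGT71C5, which glucosylates abscisic acid, had a mean of 521 ± 60.5 with GA3 and 522 ± 45.5 in mock in ga-1 (log2 difference -0.01). Beside it, the log2 difference in ga-1 was 0.59 for UGT71C4 and -0.11 for UGT71C3. The other members of the 71C subfamily, neighbours of each other on chromosome 2, were UGT71C1, which glucosylates lignans, at -0.80 (adjusted p = 0.657), with 50.6 to 174.7 in ga-1 with GA3 and 149.1 to 206.9 in ga-1 mock, and UGT71C2 at 0.17. The flavonoid 3-O-glycosyltransferases of family 78 had log2 differences in ga-1 of 0.20 for UGT78D2 (glucosyl) and 0.30 for UGT78D1 (rhamnosyl), neither of them called.

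The mutants were then compared with each other. Between the mock groups no UGT was called by limma (0 of 30, against 0.0188% of all tested probe sets), and 5 of 30 (16.7%, against 4.58%) had an unadjusted p under 0.05. In 5 genes all gid1 mock arrays lay above the ga-1 mock arrays (16.7%, against 5.01% of all probe sets), namely UGT71C4, UGT72E1, UGT73B1, UGT74D1 and UGT76B1, and in none did they lie below (0%, against 6.03%). The largest log2 difference was that of UGT76B1, a gene of defence that glucosylates isoleucic acid, salicylic acid and N-hydroxypipecolic acid. It had 627.8, 357.1 and 582.3 in gid1 mock, against 173.2, 256.8 and 306.4 in ga-1 mock (log2 difference 1.09 ± 0.36 SE, adjusted p = 0.993). Of the other genes with the smallest p, UGT71C4 had a log2 difference of 0.55, UGT74D1 0.32, UGT72E1 0.30 and UGT71C2 0.63, each with the same adjusted p. The UGT71C2 value was 0.40 without gid1 mock replicate 1 and 0.41 without ga-1 mock replicate 3.

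Taken over both treatments, the log2 difference of gid1 minus ga-1 was above 0 for 25 of the 30 UGTs (83.3%, against 47.8% of all tested probe sets). The median was 0.15, against -0.01 for all probe sets. The exceptions were UGT71C5, UGT76D1, UGT76E2, UGT80B1 and UGT84A4, with values down to -0.21. Of the 30, 2 were called, both higher in gid1 (6.67%, against 0.358% of all probe sets called higher). Split by treatment, the log2 difference was above 0 for 22 of 30 in mock (73.3%, against 47.8%) and 21 of 30 with GA3 (70%, against 48%). In none of the 30 did all gid1 arrays lie above all ga-1 arrays over both treatments (0%, against 0.232% of all probe sets).

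UGT74D1 had 892.4, 1089.1 and 1174.6 in gid1 with GA3, against 607.4, 595.2 and 698.9 in ga-1 with GA3. In mock it had 1089.8, 1068.9 and 1047.6 in gid1, against 791.1, 850 and 938 in ga-1. The gid1 arrays were thus above the ga-1 arrays in each treatment, and over both the log2 difference was 0.52 ± 0.09 (SE, limma adjusted p = 0.013). The call was lost without ga-1 mock replicate 1 (adjusted p = 0.0506) and without the intensity trend (adjusted p = 0.0592). It was also lost among mock arrays alone (log2 difference 0.32 ± 0.13 SE, adjusted p = 0.993). Of all tested probe sets, 6.98% had gid1 arrays above ga-1 arrays with GA3, and 5.01% in mock. The ga-1 GA3 arrays, below ga-1 mock in this gene, enter the value over both treatments.

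UGT76E11 was higher in gid1 by 0.84 ± 0.12 (SE) on the log2 scale (adjusted p = 0.00252). It had 318.3, 293.3 and 364.1 in gid1 with GA3, against 109, 121.6 and 123.7 in ga-1 with GA3. The mock values, 290.9, 256.8 and 260.5 in gid1 against 232.7, 268.3 and 194.4 in ga-1, overlapped. Split by treatment, the log2 difference was 1.46 ± 0.17 (SE, adjusted p = 0.000178) among GA3-treated arrays and 0.23 ± 0.17 (SE, adjusted p = 0.993) among mock arrays. The ga-1 GA3 arrays are those in which the gene fell, so this difference and the ga-1 response share data.

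Among GA3-treated arrays alone, a comparison added after the values were seen, 3 of 30 UGTs were higher in gid1 (10%, against 0.911% of all probe sets called higher) and none was lower (against 0.352%). They were UGT76E11, UGT74D1 with 0.73 ± 0.13 (SE, limma adjusted p = 0.00647), and UGT76C2 with 0.75 ± 0.17 (SE, adjusted p = 0.0447). The mock log2 differences of the last 2 were 0.32 for UGT74D1 and -0.02 for UGT76C2. In all 3 genes the ga-1 GA3 arrays lay below those of ga-1 mock. These differences and the ga-1 responses therefore share data and are not separate results.

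**Figure D4:**
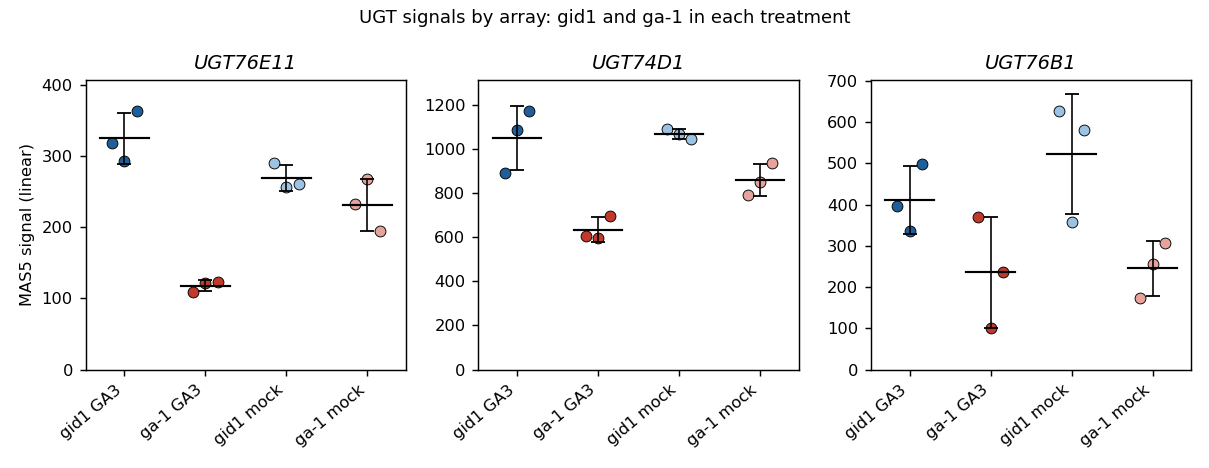
MAS5 signals (linear axis from 0) of UGT76E11, UGT74D1 and UGT76B1 on each array, with gid1 (blue) left of ga-1 (red) in each treatment. Lines are group means and bars are SD (n = 3), and the gid1 arrays of UGT74D1 lie above those of ga-1 in both treatments, while those of UGT76E11 overlap in mock.

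UGT76B1 had the largest log2 difference over both treatments, 1.03 ± 0.25 (SE), and was not called (adjusted p = 0.092). In GA3-treated arrays it had 396.2, 336.6 and 499.4 in gid1, against 370.9, 101 and 235.7 in ga-1. These overlapped through ga-1 GA3 replicate 1, and without that array the gene was called (1.24, adjusted p = 0.0279). In the other 21 of 22 alternatives it was not called. UGT76C2 had a log2 difference over both treatments of 0.36 (adjusted p = 0.322). UGT87A2, known for an effect on flowering time, had a log2 difference over both treatments of 0.32 (adjusted p = 0.511). UGT73B1 also had 0.32 (adjusted p = 0.53).

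**Figure D5:**
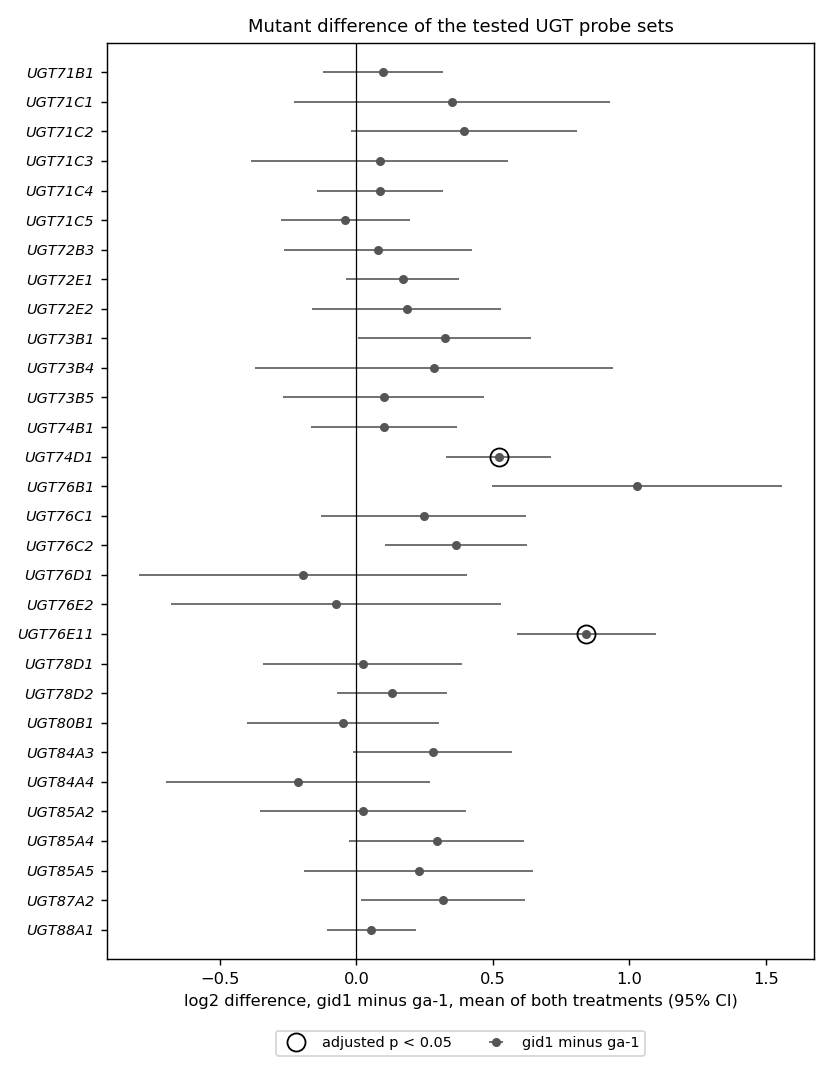
Log2 difference, gid1 minus ga-1, averaged over both treatments, of the 30 tested UGT genes, with 95% intervals from limma and rings at an adjusted p under 0.05. Of the 30 points, 25 lie right of 0, and UGT74D1 (0.52) and UGT76E11 (0.84) carry rings.

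For the other tested genes, none of them called, the 95% interval of the log2 difference in ga-1 bounds the change that these arrays allow. UGT88A1 had a mean of 3305 ± 355 in ga-1 with GA3 and 3205 ± 137 in ga-1 mock, and its log2 difference had a 95% interval of -0.19 to 0.27. UGT78D2 had 796 ± 19.4 with GA3 and 694 ± 74.5 in mock (95% interval -0.08 to 0.49). UGT72E1, a monolignol glucosyltransferase, had an interval of -0.17 to 0.42, and UGT80B1, a sterol glucosyltransferase, one of -0.20 to 0.80. For UGT84A3, which makes hydroxycinnamate glucose esters, it was -0.51 to 0.31, and for its neighbour UGT84A4 -0.50 to 0.86. UGT85A2 had 1033.1 to 2652.2 in ga-1 with GA3 and 1125.9 to 1649.7 in ga-1 mock, and its interval was -0.17 to 0.90. UGT73B4, whose product takes part in the detoxification of trinitrotoluene, had the highest log2 difference in ga-1, 0.77, with an interval of -0.16 to 1.70 and overlapping arrays. Its neighbour UGT73B5 had 0.15. For UGT71B1 the interval in ga-1 was -0.22 to 0.40, and for UGT85A5 -0.57 to 0.61.

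Probe sets shared by several genes were kept out of the 47. One reads UGT73B2 and UGT73B3 together, with a log2 difference of -0.25 in ga-1 (adjusted p = 0.822) and 0.57 for gid1 minus ga-1 over both treatments (adjusted p = 0.0532). A second, shared by UGT71D1 and AT2G29710, had 0.33 in ga-1, and one shared by UGT89B1 and AT1G73885 had 0.10, neither of them called.

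Genes around the UGT reaction were examined for comparison. Beta-glucosidases of the BGLU family, which can release the glucose, had 20 genes with a named probe set and 11 tested, with none called in any comparison and a median log2 difference in ga-1 of -0.03, against 0.01 for all probe sets. The 2 with the smallest p in ga-1 were BGLU40 (-0.70, adjusted p = 0.369) and BGLU33 (0.45, adjusted p = 0.533). Tau-class glutathione transferases, which conjugate foreign compounds with glutathione, had 9 of 11 tested and none called. GSTU16 (-0.40, adjusted p = 0.517) and GSTU23 (-0.49, adjusted p = 0.68) had the smallest p in ga-1. The median of gid1 minus ga-1 over both treatments was 0.15 for the UGTs, 0.005 for the beta-glucosidases and -0.09 for the glutathione transferases.

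Enzymes that supply the sugar and the acceptors were mostly not named in the table. Of 22 genes for UDP-sugar supply only USP, a UDP-sugar pyrophosphorylase, had a named probe set (log2 difference in ga-1 -0.09, adjusted p = 0.948). Of 19 phenylpropanoid and flavonoid enzymes, HCT (0.37, adjusted p = 0.53) and the anthocyanin enzyme DFR (-0.33, adjusted p = 0.765) were tested. Of 10 glucosinolate genes, BCAT4, which acts at the start of methionine chain elongation, had -0.28 in ga-1 and -0.45 for gid1 minus ga-1 over both treatments (adjusted p = 0.134). None of these 4 was called in any comparison.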

How the data were processed

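Seedling RNA was amplified, biotin-labelled and hybridised to 1 ATH1 array per sample, per the labels' protocols. The deposited intensities are MAS5 signals on a linear scale according to the submitters' processing notes, with no version stated. Their trimmed mean, leaving off 2% at each end, was 500.0 on each array. Groups came from the sample titles, since a description field names GA3 for mock samples too. Signals below 1 were set to 1 before log2. The tests used the 15922 probe sets, other than the 64 controls, whose mean log2 value reached the 30th percentile (5.55). Group means of all 12 arrays were modelled with limma 3.58.1 (R 4.3.3), with a prior variance that follows intensity. P-values were adjusted by Benjamini and Hochberg's method over these probe sets, and 0.05 was the threshold.

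Gene symbols came from the platform annotation, and loci from the TAIR10.1 table. UGTs named with values were chiefly those called and the 5 with the smallest p per comparison. Added to these were the smallest p of each family over the 4 groups and those with well-known roles. Further UGTs were given outside these rules, among them UGT71B1, UGT73B4, UGT73B5, UGT76E2, UGT85A2 and UGT85A5. In gene lists the 2 with the smallest p were named. Members, lists and alternatives were chosen with earlier results of these data known. Promoter and protein sequences were not used here. In simulated arrays with known changes, 68 of 100 changes of 1 (log2) were recovered in the ga-1 comparison and 37 of 100 in the difference of responses. False calls were 13 of 174 and 10 of 133. Each simulation also held 100 changes of 2, and its noise was normal and independent between probe sets, so recovery in the real arrays can differ. Same-numbered replicates of GA3 and mock groups had deviations correlated at -0.125 to 0.101, so the numbers were not taken as pairs.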

Additional observations from a re-analysis of the deposited data

Results flagged for a closer look

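The GA3 response of UGT76E11 differed between the mutants by the test of the difference itself, -1.23 on the log2 scale (ga-1 minus gid1, limma adjusted p = 0.0465). This call was lost in 15 of 20 alternatives. The 3 GA3 arrays lay below all mock arrays in ga-1, as in 7.17% of all tested probe sets. In gid1 they lay above all mock arrays, as in 4.74%, and that difference was not called (limma adjusted p = 0.94). The arrays were not compared as pairs. Groups of 3 arrays are too small for a test of single outlying arrays.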

How the results depend on the processing

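The number of UGTs called in ga-1, 1 in the report, was 0 when the compared groups were fitted alone, 2 with array weights (UGT76C2 added), and 0 to 1 without single arrays. In the difference of responses it was 0 in place of 1 with quantile normalization, median centring, no low-value filter, no intensity trend and the replicate number as a block (log2 difference of UGT76E11 -1.23, adjusted p = 0.0895 with that block), and 0 to 1 without single arrays. For gid1 against ga-1 over both treatments, 2 in the report, it was 1 without the intensity trend, 0 in mock arrays alone, and 1 to 3 without single arrays. The counts of 0 in gid1 after GA3 and between mock groups were 0 under each alternative. UGT76C2 reversed in mock arrays alone, at -0.018 against 0.36. The replicate block changed no other call. The cause of these changes was not tested. Splitting by treatment and leaving out the gid1 GA3 arrays were chosen after seeing the data. The 3 arrays per group and, for the 17 low genes, mean log2 signals under the low-value limit restrict what could be seen.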
